A study of Mus musculus with 12 samples.

Results

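The genes described here encode the proteins of the cytosolic ribosome of the mouse. They were taken by name: protein-coding genes of the annotation whose symbol has the form of a large-subunit (Rpl), small-subunit (Rps), stalk (Rplp) or Rpsa gene, without pseudogenes and without the Rps6k kinases. The rule found 84 genes among the 48448 genes of the table, 52 for the 60S subunit and 32 for the 40S subunit, and used no measured value. The 12 RNA-seq libraries come from C57BL/6 mice with tumours of colitis-associated cancer. Colon tumours and the epithelium beside them were taken both from mice whose Synbindin gene is floxed but kept (Synbindinflox, flox) and from mice that lack it in intestinal epithelial cells (SynbindinΔIEC, ΔIEC), which gave 4 groups of 3 libraries. The libraries are called FA and FT (flox, adjacent and tumour) or DA and DT (ΔIEC, adjacent and tumour), followed by the replicate number. The labels name neither the promoter behind the deletion, nor the ages of the mice, nor whether the libraries of a group are separate animals, so a p-value speaks only for the spread of these samples, which may be technical.

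A cytosolic ribosome joins a 40S subunit, which reads the mRNA, to a 60S subunit, which forms peptide bonds, and each subunit holds nearly all of its proteins in a single copy. The mRNAs of these proteins begin with a run of pyrimidines, the terminal oligopyrimidine (TOP) tract, through which mTORC1 and the repressor LARP1 control their translation together. Ribosome output is known to follow growth and the transcription factor Myc, and in the colon the dividing cells of the crypt and of tumours make ribosomes at a high rate.

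Values are FPKM, summed over the transcripts of a gene. The unit scales fragments to transcript length and to the fragments of a library, so the sequencing depth is unknown. How the libraries were normalized to each other is not given. Trappc4, which encodes Synbindin, checks the labels: it lay between 16.8 and 20.9 FPKM in the flox libraries and between 9.91 and 12.7 in the ΔIEC libraries. Of the 12 general markers of colon epithelium none was under 1 FPKM in all libraries. Their summed level was 9867 to 13166 FPKM in flox and 7495 to 10711 in ΔIEC adjacent libraries, against 5039 to 6681 and 5802 to 7337 in the tumours. The 6 goblet cell markers summed to 18285 to 51113 FPKM in adjacent libraries and to 1594 to 5018 in tumours, whereas the 6 fibroblast markers summed to 44.6 to 247 and 276 to 581, the 5 endothelial markers to 9.79 to 36.1 and 35.8 to 47.0 and the 5 proliferation markers to 141 to 256 and 226 to 331. The ranges of the endothelial and proliferation markers overlapped between adjacent libraries and tumours. So did those of the 8 leukocyte markers (27.8 to 169.7 and 38.1 to 83.5 FPKM), the 4 plasma cell markers (271 to 1128 and 129 to 694) and the 6 smooth muscle markers (18.2 to 249.9 and 36.1 to 272.4). In bulk tissue, fewer cells of a type and less RNA per cell cannot be told apart, and the part of these shifts in the differences given here was not tested.

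The promoters of these genes were read for the motifs known from ribosomal protein genes. RefSeq's promoter table for GRCm38.p6, which gives 250 bases before and 50 after each start, held 64 of the 84 genes. Motifs were searched on both strands in these 300 bases, and the motifs can overlap each other in a window. The pyrimidine run CTTTCC was present in 34 of 64 members (53.1%) and in 28.8% of all protein-coding genes. In the 50 bases around the start it was present in 20.3% of members and 5.002% of protein-coding genes. The ETS-type motif CCGGAAG was present in 40.6% against 12.9%, the GC box GGGCGG in 62.5% against 49.2% and the TATA box TATAAA in 10.9% against 14.8%. In the 50 bases around the start these were 15.6% against 5.14%, 21.9% against 18.2% and, for TATAAA, 4.69% against 1.34%, the other way round from the longer window. A match is a description of letters and shows no binding. Stretches from 50 bases before to 20 after RefSeq's start follow, 5′ to 3′ on the strand of the gene, with these 4 motifs on either strand in capitals. For Rps27l, the first of its 2 RefSeq starts is shown, and the other stretch holds none of the motifs. Rps27 and Rpl37 are shown because they were called lower in flox tumours relative to the other members, Rpl13a and Rpl35 because they were among the members called higher in ΔIEC tumours, and Rps27l and Rpl22l1 because they are paralogs compared with their partners below.

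Rps27, chr3:90213629-90213698, minus strand: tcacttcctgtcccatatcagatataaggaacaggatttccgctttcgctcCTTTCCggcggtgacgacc
Rpl37, chr15:5116563-5116632, plus strand: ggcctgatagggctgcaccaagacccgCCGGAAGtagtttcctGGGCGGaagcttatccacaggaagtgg
Rpl13a, chr7:45128726-45128795, minus strand: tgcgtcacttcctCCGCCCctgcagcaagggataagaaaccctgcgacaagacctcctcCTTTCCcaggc
Rpl35, chr2:39005112-39005181, minus strand: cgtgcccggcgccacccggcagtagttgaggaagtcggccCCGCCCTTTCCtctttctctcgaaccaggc
Rps27l, chr9:66946036-66946105, plus strand: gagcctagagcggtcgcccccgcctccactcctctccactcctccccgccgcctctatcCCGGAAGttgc
Rpl22l1, chr3:28805458-28805527, plus strand: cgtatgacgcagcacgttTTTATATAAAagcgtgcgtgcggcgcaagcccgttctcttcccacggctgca

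Rps27, Rpl13a and Rpl35 hold CTTTCC near the start, Rpl37 and Rps27l hold CCGGAAG, Rpl37, Rpl13a and Rpl35 hold a GC box on either strand, and Rpl22l1 holds TATAAA overlapping its reverse complement TTTATA. Whether any motif goes with the tumour differences of the members was not tested.

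Ribosomal protein mRNAs were among the most abundant of the tissue. Of the 84 genes, 81 passed the filter of at least 1 FPKM in at least 3 libraries, and 79 of these were over 100 FPKM in every library. FPKM is a level per transcript length, so genes were ranked on it. How short transcripts and reads shared with copies were handled is not given, so the ranking is approximate. The median gene had a mean of 474.1 FPKM over the 12 libraries, and the 10th and 90th percentiles, 206.3 and 905.9 FPKM, lay 4.39-fold apart. Rps12, a 40S protein, was highest with 1587 FPKM, followed by Rpl41, which encodes the smallest protein of the ribosome, with 1218 and Rps24, a 40S protein mutated in some patients with Diamond-Blackfan anaemia, with 1098. The 3 lowest were all paralogs: Rpl7l1 (21.4 FPKM), Rpl22l1 (36.2) and Rps27l (159). The paralogs Rpl3l, known from striated muscle, and Rpl10l and Rpl39l, known from testis, did not pass the filter. Rpl3l reached 0.148 FPKM at most, Rpl39l 0.0922, and Rpl10l was listed at 0 in all 12 libraries. The 84 genes lie on 19 chromosomes, 4 of them on X, and 40S genes held 42.8% to 44.1% of the summed FPKM of the members in every library.

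The members varied little between the libraries of a group. The median SD of log2(FPKM + 1) within groups was 0.10 over the 81 members, 0.24 over all 16970 genes tested and 0.24 over the 544 other protein-coding genes with a mean of at least 100 FPKM. The steadiest members were Rps4x (SD 0.0473), an X-linked 40S protein, and Rpl7a (0.0585), and the most variable were Rpl23a (0.212) and Rpl22l1 (0.208). After each library was centred on the mean of the members the median SD was 0.0730, while the largest rose to 0.248. Part of the spread was thus common to members of a library, but not to all of them.

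The summed level of the 84 genes and their share of the protein-coding FPKM did not order the libraries alike. The summed level was 47066, 43304 and 40966 FPKM across FA1 to FA3 and 39835, 42459 and 38948 in FT1 to FT3. It was 37899.8, 41632 and 41389.7 in DA1 to DA3 and 45382, 43446 and 44974 in DT1 to DT3. Flox tumours overlapped flox adjacent tissue, and each ΔIEC tumour lay above each ΔIEC adjacent library. As a share of the FPKM of all nuclear protein-coding genes, the members held 8.51% to 10.4% in FA, 7.38% to 9.82% in DA, 10.4% to 12.1% in FT and 11.9% to 12.4% in DT. The share of FT3, 10.35%, lay just under that of FA1, 10.41%, and the other 5 tumours lay above all 6 adjacent libraries; this was not tested. The 20 most abundant other protein-coding genes include the mucin Muc2 and the goblet cell lectin Zg16. They held 11.8% to 19.3% of the FPKM of nuclear protein-coding genes in adjacent libraries and 5.79% to 7.42% in tumours. The FPKM of all nuclear protein-coding genes summed to 423997 to 513412 in adjacent libraries and 344790.0 to 378729 in tumours. A tumour difference is therefore given on 2 scales, the deposited FPKM and FPKM rescaled so that protein-coding genes have the same total in each library. With the latter the median of all genes tested moved from -0.01 to 0.33 in flox and from -0.03 to 0.21 in ΔIEC mice.

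**Figure D1:**
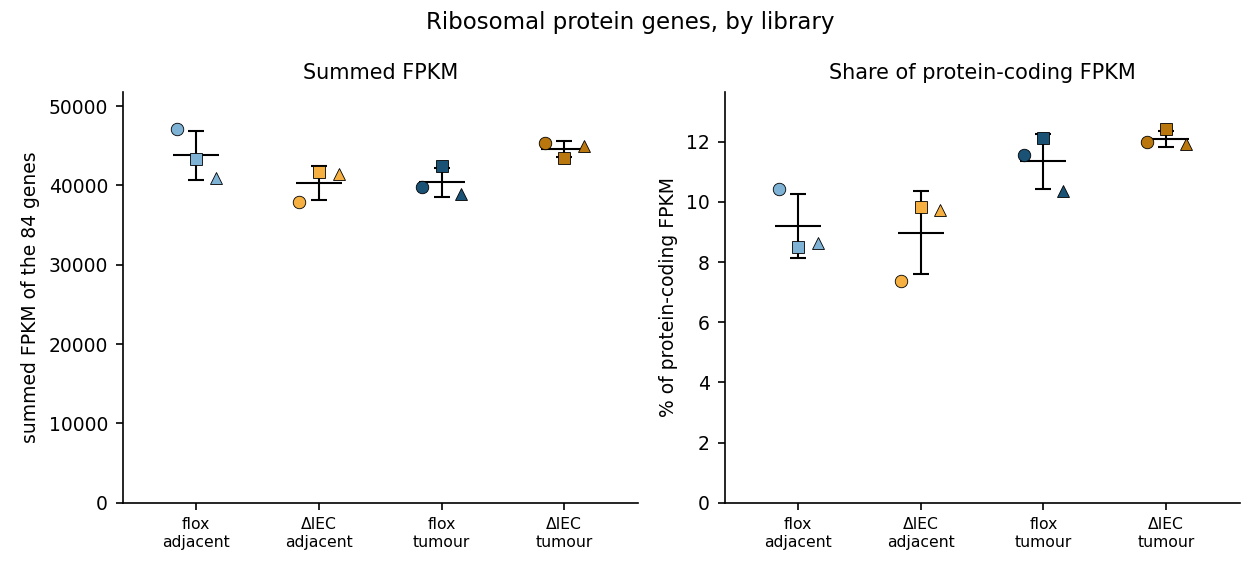
Summed FPKM of the 84 ribosomal protein genes (left) and their percentage of the FPKM of nuclear protein-coding genes (right) in each library (circles for replicate 1, squares for 2, triangles for 3; black marks give each group's mean and SD, n = 3); both axes start at 0. The sums of flox tumours overlap those of flox adjacent tissue, while the share is 7.38% to 10.41% in adjacent libraries and 10.35% to 12.4% in tumours, with FT3 just under FA1.

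The comparison of flox tumours with flox adjacent epithelium asks what differs between tumour and surrounding tissue with Synbindin present. On deposited FPKM 12 of the 81 members fell and none rose (limma, Benjamini-Hochberg adjusted p below 0.05), a direction that did not hold under rescaling or quantile normalization. Over all genes tested, 19.7% were called lower and 16.6% higher. The median log2 difference of the members was -0.09 and 26 of 81 were above 0. With the protein-coding total rescaled 34 members rose and none fell, against 36.9% and 10.4% of all genes, and the median was 0.33, the same as that of all genes. Quantile normalization gave 36 higher and none lower (18.2% and 17.6% of all genes), with a median of 0.33 against 0.01 for all genes. The 12 members lower on deposited FPKM became 3 without FA1, FA2 or FT1, 4 without FT3 and 5 when only the flox libraries were fitted. The 34 higher on the rescaled values became 8 without FA2, 15 without FA3 or FT1 and 12 without FT2.

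The largest fall was that of Rps27, which encodes a zinc-finger protein of the 40S subunit (ENSMUSG00000090733, chr3:90212522-90213651, minus strand; coordinates of genes are GRCm38, GENCODE M21). Its FPKM was 1133, 1042 and 987 across FA1 to FA3 and 776, 781 and 694 in FT1 to FT3, so that the groups were apart. The log2 difference was -0.49 (SE 0.109, limma adjusted p = 0.00688), and -0.07 on the rescaled values (adjusted p = 0.743). Rps29, another small zinc-binding 40S protein (ENSMUSG00000034892, chr12:69157722-69159186, minus strand), was at 688, 632 and 566 FPKM across FA1 to FA3 and 461, 518 and 461 in FT1 to FT3. All 3 tumours were below all 3 adjacent libraries, with a log2 difference of -0.39 (SE 0.110, limma adjusted p = 0.0205) that was 0.03 after rescaling. Rpl7a, a 60S protein whose introns host small nucleolar RNAs (ENSMUSG00000062647, chr2:26910764-26913318, plus strand), was at 665, 694 and 664 FPKM across FA1 to FA3 and 497, 556 and 504 in FT1 to FT3. Rpl7a varied little within groups and did not overlap between them (log2 difference -0.38, SE 0.0827, limma adjusted p = 0.00628; 0.04 after rescaling). Rpl37, a zinc-binding 60S protein (ENSMUSG00000041841, chr15:5116645-5119140, plus strand), was at 233, 219 and 213 FPKM in the FA and 163, 179.9 and 176 in the FT libraries, again with every tumour below every adjacent library (-0.36, limma adjusted p = 0.0117). The 60S genes Rpl28 (-0.37), Rpl21 (-0.36), Rpl38 (-0.35) and Rpl36 (-0.32) also fell on deposited FPKM, and their rescaled differences were 0.05 to 0.10 with no call. Rpl18, Rpl31 and Rpl37a were also among those called lower. Without a test, 25 members were lower in all 3 flox tumours than in all 3 adjacent libraries and 3 were higher (27.1% and 26.4% of all genes).

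The comparison of ΔIEC tumours with ΔIEC adjacent epithelium asks the same with Synbindin deleted in the epithelium. On deposited FPKM 13 members rose and none fell, against 13.9% and 15.5% of all genes. The median log2 difference was 0.19 (-0.03 over all genes) and 73 of 81 members were above 0. After rescaling, 52 members rose and none fell (25.5% and 8.82% of all genes), with a median of 0.48 against 0.21, and quantile normalization gave 50 and none (16.2% and 14.1% of all genes), with 0.42 against 0.00. The direction was thus the same under these 3 scalings in ΔIEC mice. The 13 calls on deposited FPKM became 0 without DT1, 1 without DA1, 5 without DT2, 6 without DA3, 7 without DT3, 8 without FA2 or FT2, 8 with no filter on low values and 0 when only the ΔIEC libraries were fitted. The 52 on rescaled values became 24 without DA1, 25 without DT1 and 29 without DT2. DA1 had the lowest summed level of the members of all 12 libraries and the largest share of protein-coding FPKM in the 20 most abundant other genes, 19.3%.

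Rps13, a 40S protein at the subunit interface (ENSMUSG00000090862, chr7:116331505-116334195, minus strand), had the largest difference. It was at 130.1, 152 and 155 FPKM in DA1 to DA3 and 208, 195 and 189.6 in DT1 to DT3, with no overlap. The log2 difference was 0.44 (SE 0.119, limma adjusted p = 0.0204), and 0.73 after rescaling (adjusted p = 0.00756); in flox mice it was -0.09 and 0.33, neither called. Rpl14, a 60S protein (ENSMUSG00000025794, chr9:120571444-120574654, plus strand), was at 258, 281 and 286 FPKM in DA1 to DA3 and 387, 341 and 357 in DT1 to DT3. Every tumour exceeded every adjacent library, and Rpl14 had the smallest adjusted p of the members (log2 difference 0.39, SE 0.0944, limma adjusted p = 0.0125). Rpl7, a 60S protein (ENSMUSG00000043716, chr1:16101295-16104662, minus strand), was at 449, 457 and 423 FPKM in DA1 to DA3 and 694, 596 and 503 in DT1 to DT3, without overlap although the tumours spread widely (log2 difference 0.42, limma adjusted p = 0.0227). Rpl12, a 60S protein at the base of the stalk (ENSMUSG00000038900, chr2:32961559-32965345, plus strand), was at 420.0, 475 and 519 FPKM in the DA and 649, 603 and 624 in the DT libraries, again apart (log2 difference 0.41, limma adjusted p = 0.0247). The calls of Rpl12 and Rpl35 were lost when only transcripts annotated as protein-coding were summed (0.34 and 0.21). Transcripts not annotated so held 69.3% and 50.8% of their FPKM. Rpl35 (0.35), Rpl22 (0.34), Rpl3 (0.33), which lies near the peptidyl transferase centre, and Rpl27a (0.32) followed. Rpl27, Rpl13a, Rps27a, Rpsa and Rps3 complete the 13. Without a test, 39 members were higher in all 3 ΔIEC tumours than in all 3 adjacent libraries and none was lower (20.8% and 22.9% of all genes).

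Rpl13a, a 60S protein also known from translational silencing in the interferon response (ENSMUSG00000074129, chr7:45125558-45128761, minus strand), showed the same order in both genotypes. It was at 849, 824 and 803 FPKM across FA1 to FA3, 828, 799 and 867 in DA1 to DA3, 879.9, 943 and 982 in FT1 to FT3 and 1092, 961 and 1043 in DT1 to DT3. Every tumour was above every adjacent library of either genotype. The log2 difference was 0.18 in flox (limma adjusted p = 0.136) and 0.31 in ΔIEC mice (adjusted p = 0.0247), and after rescaling 0.60 (adjusted p = 0.00194) and 0.61 (adjusted p = 0.00286).

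**Figure D2:**
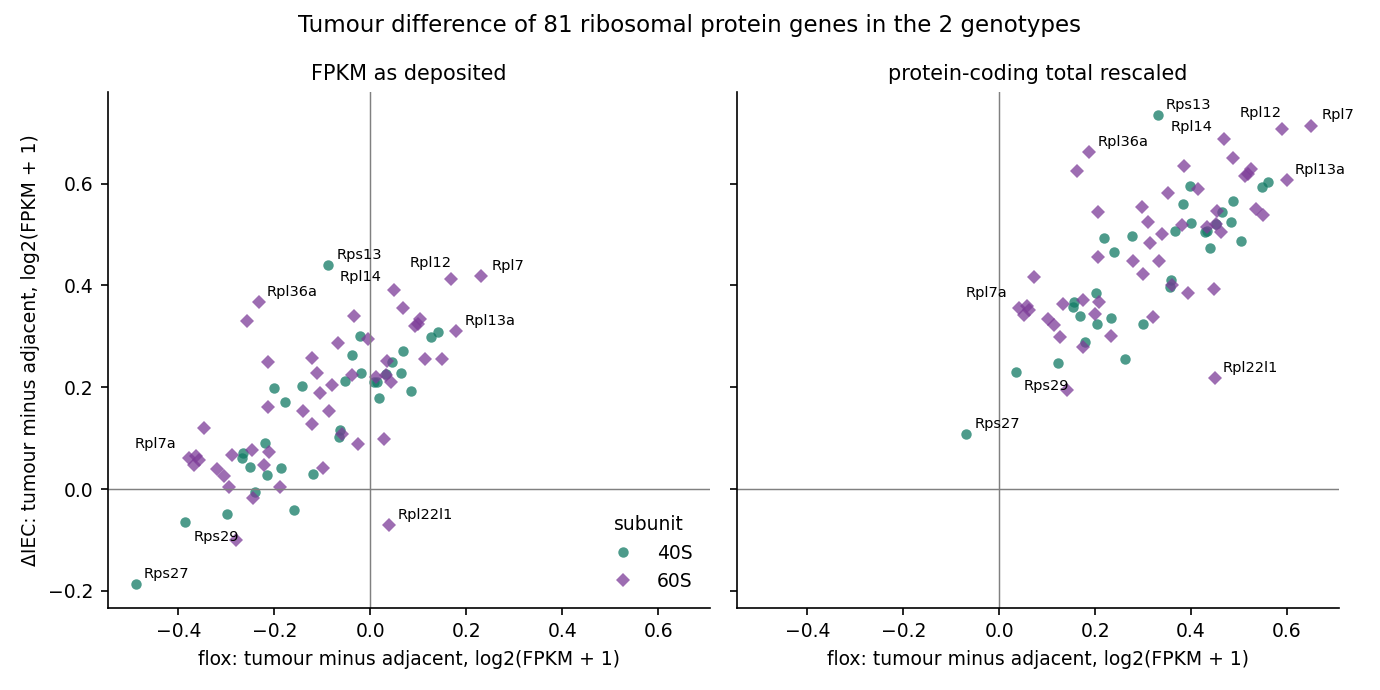
Log2(FPKM + 1) difference between tumour and adjacent tissue of 81 ribosomal protein genes in flox (horizontal) and ΔIEC mice (vertical), on deposited FPKM (left) and with the protein-coding total rescaled (right); circles are 40S and diamonds 60S genes. The medians are -0.09 and 0.19 on the left and 0.33 and 0.48 on the right, and Rps27 lies lowest in both genotypes in each panel.

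The order of the members was similar in the 2 genotypes. Across the 81 genes, Pearson's r between the flox and ΔIEC tumour differences, which share no library, was 0.71 and Spearman's rho 0.70, as a description, since genes of a library share its depth and composition. It was 0.87 over all genes tested and 0.96 over the 544 other abundant protein-coding genes, whose differences also covered a wider range. In the 5 pairs of adjacent and tumour libraries that share a number in their description, the median rescaled difference of the members was 0.19 to 0.53 in the 3 flox pairs and 0.30 and 0.35 in the 2 ΔIEC pairs. The medians of all genes were 0.27 to 0.43 and 0.11 and 0.20, and in 2 of the 3 flox pairs the members lay below all genes. On deposited FPKM the medians of the members were -0.20 to 0.00 and 0.13 and 0.08. The labels do not say what that number marks.

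Multiplying a library by a factor leaves the differences between abundant members as they are, whereas quantile normalization changes them. Each library was therefore also centred on the mean log2(FPKM + 1) of the 81 members, an alternative added after seeing the data. In flox tumours 3 members were then called lower, Rps27 (log2 difference -0.39, limma adjusted p = 0.00999), Rps29 (-0.28, adjusted p = 0.0378) and Rpl37 (-0.25, adjusted p = 0.0451), and 1 higher, Rpl12 (0.27, adjusted p = 0.0474). The share of all genes called was 13.6% lower and 21.4% higher. In ΔIEC tumours Rps27 alone was called lower (-0.35, adjusted p = 0.0180) and none higher, against 21.6% and 8.46% of all genes. For Rps27 the FPKM was 824, 975 and 1016 in DA1 to DA3 and 858, 766 and 840.3 in DT1 to DT3, where DT1 and DT3 lay above DA1, so the groups overlapped on deposited FPKM. Leaving out each of the 12 libraries in turn, Rps27 stayed called relative to the members in flox tumours in 12 of 12 fits (adjusted p 0.00681 to 0.0377). In ΔIEC tumours it did so in 9 of 12, the exceptions being without DA3 (adjusted p = 0.0641), DT1 (0.0526) or DT2 (0.0662). The other calls were less stable: without FA2, FT1, FT2, FT3, DA3, DT1 or DT2 only Rps27 (1 member) was called lower in flox tumours, and Rpl12 or any other member was called higher in 4 of the 12 fits.

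**Figure D3:**
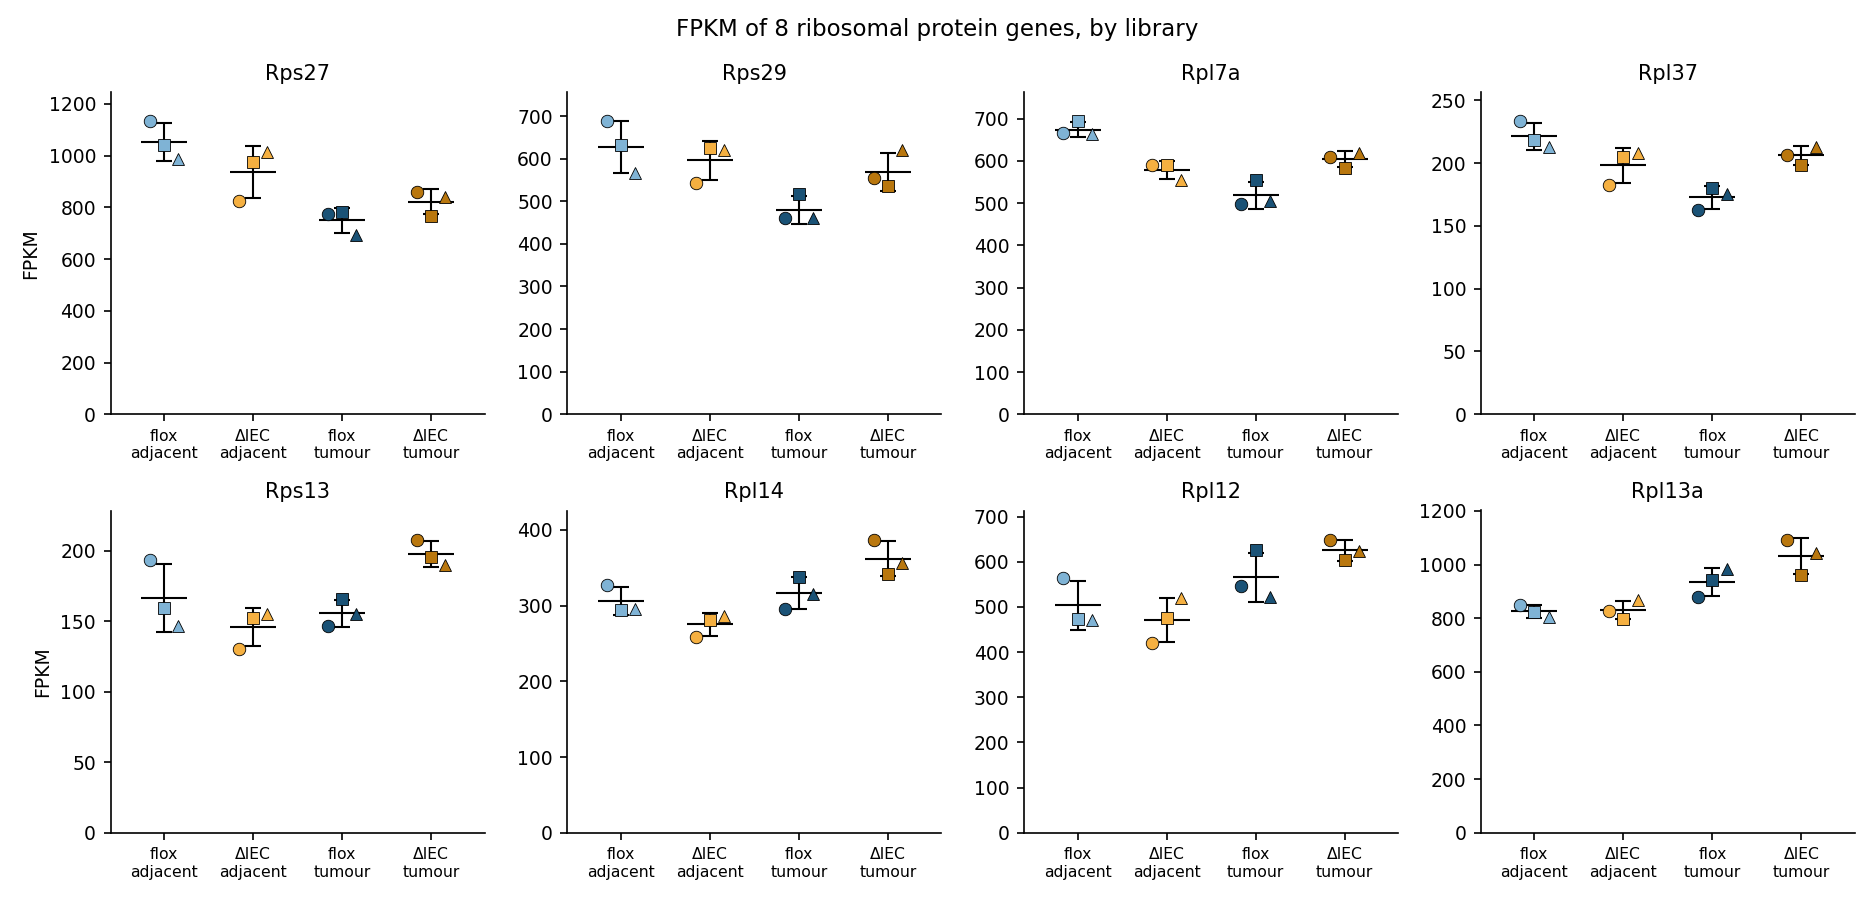
FPKM of 4 members that fell in flox tumours on deposited FPKM (top) and 4 that rose in ΔIEC tumours (bottom) in each library (circles for replicate 1, squares for 2, triangles for 3; black marks give each group's mean and SD, n = 3); each axis starts at 0. Rps27 is at 694 to 857.7 FPKM in the 6 tumours and 824 to 1133 in the 6 adjacent libraries, and Rpl13a is at 880 to 1092 in tumours and 799 to 867 in adjacent libraries.

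Several ribosomal proteins have a paralog encoded by another gene, and the ratio of the pair within a library does not move when a library is multiplied by a factor. It does move under quantile normalization, for which the ratios were not tested. Rps27l, a target of p53 that can replace Rps27 in the 40S subunit, was 13.9%, 16.9% and 17.7% of the level of Rps27 across FA1 to FA3 and 19.0%, 19.7% and 21.04% in FT1 to FT3. In DA1 to DA3 it was 17.8%, 17.4% and 12.9%, and in DT1 to DT3 18.5%, 24.7% and 18.5%. All 6 tumours lay above all 6 adjacent libraries. The log2 ratio of FPKM + 1 was 0.33 higher in tumours (exact two-sided permutation within genotype over 400 arrangements, p = 0.005, the smallest this design allows, and 0.02 adjusted over 4 pairs). It was 0.26 to 0.38 higher when single libraries were left out. Rps27l itself was at 169 ± 10.5 FPKM (SD, n = 3) in FA, 149 ± 4.19 in FT, 149 ± 19.8 in DA and 168 ± 18.7 in DT. Rps27l was not called on deposited FPKM (limma adjusted p = 0.261 in flox and 0.298 in ΔIEC mice). After rescaling it was called in ΔIEC tumours (0.47, limma adjusted p = 0.0314), where the median of all genes was 0.21.

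The other pairs did not pass the test. Rpl22l1, whose mRNA is known to be controlled by its partner Rpl22, was at 11.99% ± 2.55 of Rpl22 (SD, n = 3) in FA, 14.7% ± 3.29 in DA, 12.6% ± 2.04 in FT and 10.8% ± 0.840 in DT (log2 ratio -0.17 in tumours, exact permutation p = 0.335, adjusted 0.447). Rpl7l1, a nucleolar assembly factor related to Rpl7, was at 3.59% to 4.997% of Rpl7 in the 12 libraries (log2 ratio -0.12, exact permutation p = 0.14, adjusted 0.28). Rpl36al, an intronless copy of Rpl36a, was at 55.2% to 85.2% of Rpl36a (0.04, exact permutation p = 0.74), and leaving out FA1, DA3 or FT3 turned its sign. Rpl36a and Rpl36al are nearly identical, so the division of reads between them is uncertain. For Rpl3l, Rpl10l and Rpl39l, all under the filter, no ratio was formed; their partners Rpl3, Rpl10 and Rpl39 were at 429.6, 848 and 170.4 FPKM over the 12 libraries, and Rps4l is not protein-coding in the annotation used and was not analysed here.

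**Figure D4:**
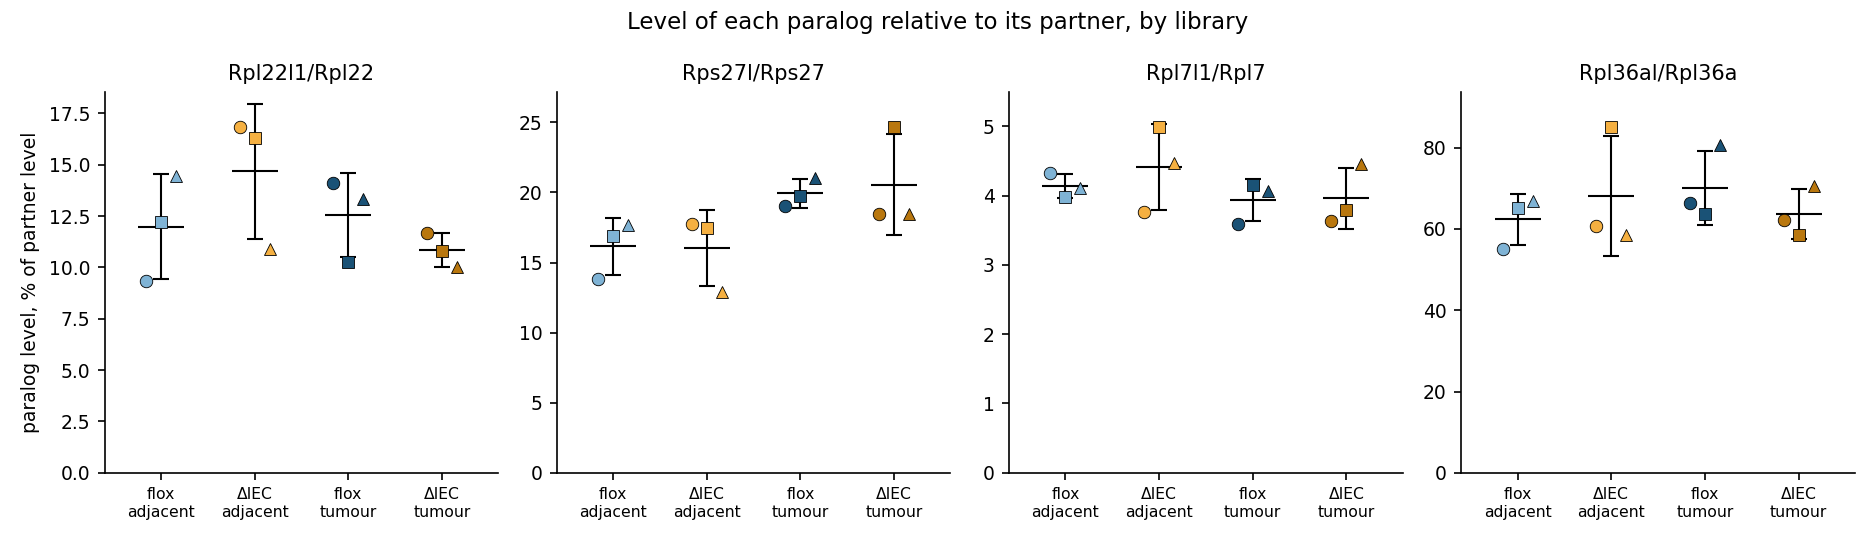
FPKM of each paralog as a percentage of that of its partner in each library (circles for replicate 1, squares for 2, triangles for 3; black marks give each group's mean and SD, n = 3); axes start at 0 and differ between panels. For Rps27l/Rps27 the 6 tumours lie at 18.5% to 24.7% and the 6 adjacent libraries at 12.9% to 17.8%, while the groups of the other pairs overlap.

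Members with roles outside peptide synthesis were read out separately. Rpl5 and Rpl11, which with 5S RNA bind Mdm2 and so connect the ribosome to p53, were not called on deposited FPKM. Rpl5 was at 372 ± 37.8 FPKM (SD, n = 3) in FA, 375 ± 26.0 in FT, 326 ± 19.3 in DA and 379.6 ± 13.0 in DT, and Rpl11 at 436 ± 21.2, 446 ± 11.3, 406 ± 15.9 and 484 ± 32.4. Both rose in both genotypes after rescaling, by 0.43 and 0.51 for Rpl5 and 0.45 and 0.55 for Rpl11 (limma adjusted p 0.00675 to 0.0350). The median of all genes on the rescaled values was 0.33 in flox and 0.21 in ΔIEC mice. Rps6, the 40S protein phosphorylated downstream of mTORC1, had log2 differences of 0.14 in flox and 0.31 in ΔIEC mice (limma adjusted p = 0.331 and 0.0538) and rose after rescaling (0.56 and 0.60). Rpsa, also known as the laminin receptor, rose in ΔIEC tumours on both scales (0.30 and 0.59) and in flox tumours after rescaling (0.55). Rps27a, which encodes a fusion of ubiquitin to a 40S protein, was called in ΔIEC tumours (0.30, limma adjusted p = 0.0450) and had -0.02 in flox.

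The stalk proteins Rplp0, Rplp1 and Rplp2, which recruit elongation factors, differed little. Rplp0 had log2 differences of 0.03 in flox and 0.10 in ΔIEC mice, Rplp1 -0.19 and 0.00, and Rplp2 -0.10 and 0.04, none called on deposited FPKM. After rescaling Rplp0 rose in flox tumours (0.45, limma adjusted p = 0.0255), while the ΔIEC value of 0.39 was not called (adjusted p = 0.0544). The rescaled medians of all genes were 0.33 and 0.21. Among the most abundant members, Rps12 was at 1629, 1572 and 1476 FPKM across FA1 to FA3 and 1678, 1719 and 1496 in FT1 to FT3, overlapping. Rpl41 was at 1378, 1299.8 and 1205 FPKM in the FA and 928, 1092 and 1169 in the FT libraries, all tumours lower and without a call (log2 difference -0.29, limma adjusted p = 0.101; 0.13 after rescaling).

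Among the ribosomal proteins that the naming rule leaves out, Fau and Rack1 were looked at beside the members. Fau, whose product is a ubiquitin-like protein fused to a 40S protein, was at 462, 492 and 439 FPKM across FA1 to FA3 and 292, 313 and 287 in FT1 to FT3, and at 434, 338 and 408.2 in DA1 to DA3 and 329.7, 304 and 308 in DT1 to DT3. All tumours of a genotype lay below all its adjacent libraries, and Fau fell in both (-0.64, limma adjusted p = 0.00166, and -0.32, adjusted p = 0.0472), with -0.22 and -0.02 and no call after rescaling. Rack1, the signalling scaffold of the 40S head, was at 469.6 ± 3.34 FPKM (SD, n = 3) in FA and 440.0 ± 11.1 in FT. It was called higher after rescaling but not on deposited FPKM (0.33 in flox and 0.37 in ΔIEC mice). The rescaled medians of all genes were 0.33 and 0.21, so in flox mice Rack1 lay at the median. In flox tumours the deposited difference of Fau lay below that of Rps27, the lowest member.

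Shorter members had lower tumour differences than longer ones in both genotypes. Lengths, weighted by transcript level, ran from 347 nt (Rps27) to 2606 nt (Rpl7l1) with a median of 687 nt. In flox mice the median log2 difference on deposited FPKM was -0.23 over the 15 members under 500 nt, -0.12 over the 38 from 500 to 800 nt and 0.02 over the 28 longer ones. In ΔIEC mice these medians were 0.07, 0.17 and 0.22. Across the 81 genes, Pearson's r between log2 length and the difference was 0.48 in flox and 0.40 in ΔIEC mice (Spearman's rho 0.45 and 0.37), as a description. Over the 544 other abundant protein-coding genes r was -0.07 in each genotype. Rps27 and Rps29 are among the 5 shortest members, with 347 and 390 nt, whereas Rpl7a and Rpl37, which also fell in flox tumours, have 913 and 835 nt. The part of length in the differences of single members was not tested.

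**Figure D5:**
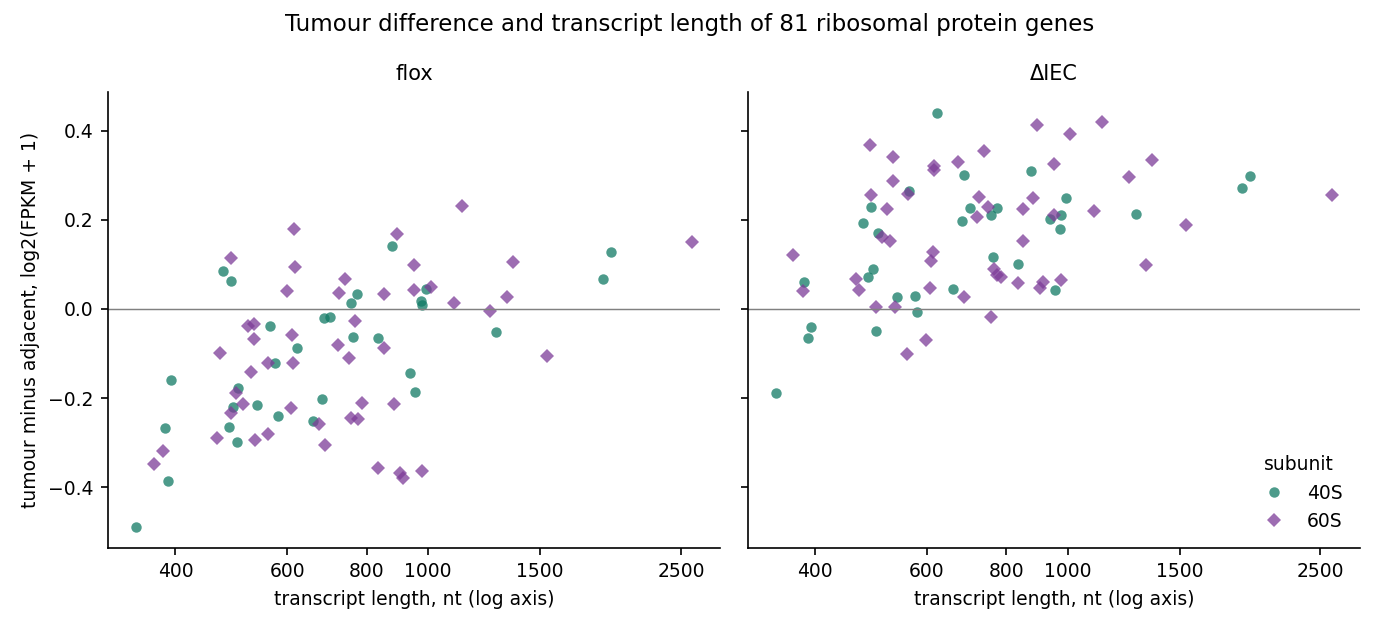
Log2(FPKM + 1) difference between tumour and adjacent tissue of 81 ribosomal protein genes on deposited FPKM against transcript length (log axis) in flox (left) and ΔIEC mice (right); circles are 40S and diamonds 60S genes. The shortest gene, Rps27 at 347 nt, is lowest in both panels, and Pearson's r is 0.48 and 0.40.

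Comparing the genotypes within a tissue asks what the deletion changes. No gene of the 16970, and so no member, was called in either tissue or in the interaction on deposited FPKM (limma; 0% of all genes called). At an unadjusted p below 0.05 there were 1 of 81 members in adjacent tissue, 10 in tumours and 25 for the interaction, beside 702, 317 and 448 of all 16970 genes. After rescaling or quantile normalization these member counts were 0 in all 3 comparisons. Without DA1, 290 genes were called higher and 9 lower in adjacent tissue, none of them a member; leaving out any other library gave at most 3 calls in a comparison. In adjacent tissue 78 of 81 members were lower in ΔIEC than in flox libraries, with a median log2 difference of -0.12 (-0.03 over all genes). In tumours 78 of 81 were higher, with a median of 0.14 (-0.01 over all genes). In adjacent tissue 24 members lay below flox in all ΔIEC libraries and none above (5.14% and 2.56% of all genes). In tumours 35 lay above and none below (3.03% and 3.74%), and the members of a library are not independent of each other. The sizes depended on scaling: the medians were -0.04 and 0.09 after rescaling and -0.05 and 0.02 after quantile normalization, and in tumours 75 and 45 of 81 members were then higher. The tumour difference of ΔIEC mice exceeded that of flox mice in 80 of 81 members, in 75 after rescaling and in 53 after quantile normalization, with medians of 0.25, 0.12 and 0.06 (0.01, -0.10 and 0.02 over all genes). This was not particular to the members. On deposited FPKM it held for 74 of 78 mitochondrial ribosomal protein genes (median 0.25) and 16 of 16 other genes with TOP mRNAs (0.29). It also held for 12 of 12 colon epithelium markers (0.45) and 20 of 26 ribosome assembly genes (0.12), but for 1 of 6 fibroblast markers (-0.78).

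Rpl7a had the smallest unadjusted p of the members for the interaction. It was at 591, 590.2 and 555 FPKM in DA1 to DA3 and 608, 583 and 619.7 in DT1 to DT3, beside the flox values given above. ΔIEC libraries were therefore below flox in adjacent tissue and above flox in tumours in every library. The interaction was 0.44 (SE 0.117, limma adjusted p = 1) and 0.31 (SE 0.147) after rescaling. The largest interactions were those of Rpl36a (0.60, SE 0.202) and Rpl24 (0.59, SE 0.219), named after their values were seen. The negative interaction with the smallest p was that of Rpl22l1 (-0.11, SE 0.232, limma adjusted p = 1). Between genotypes, Rps13 had the smallest p among members higher in ΔIEC tumours (0.34, limma adjusted p = 1), where it was at 147, 166 and 155 FPKM in FT1 to FT3 against 208, 195 and 189.6 in DT1 to DT3, without overlap. Rpl34 was the lower member with the smallest p there (-0.03, limma adjusted p = 1), and in adjacent tissue these were Rpl7a, lower (-0.22, adjusted p = 0.931), and Rps15a, higher (0.07, adjusted p = 0.948). Rpl30, Rpl35a and Rps23 were lower in all flox tumours and higher in all ΔIEC tumours than in the adjacent libraries of the same genotype. Their interactions were 0.25 (SE 0.118), 0.37 (SE 0.128) and 0.34 (SE 0.135), with limma adjusted p of 1 each.

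Genes of the machinery that makes and serves ribosomes were set beside the ribosomal protein genes. For comparison with each list, 16.6% of all genes in flox and 13.9% in ΔIEC tumours were called higher and 19.7% and 15.5% lower. After rescaling, 36.9% and 25.5% of all genes were called higher and 10.4% and 8.82% lower. The 26 ribosome assembly genes looked at include nucleolar ones and factors of later 40S steps. Of these, 17 rose in flox tumours (median log2 difference 0.61) and 22 in ΔIEC tumours (0.73), none fell, and 24 and 22 were called higher after rescaling. Npm1, a nucleolar chaperone, was at 199, 137 and 155 FPKM across FA1 to FA3 and 249.8, 277 and 264 in FT1 to FT3, and at 127, 159 and 158 in DA1 to DA3 and 336, 284 and 305 in DT1 to DT3, without overlap (0.70 and 1.06, limma adjusted p = 0.00517 and 0.00153). The largest rise in the list was that of Ltv1, a 40S export factor (1.14 and 1.31). The smallest called were Pes1 in flox (0.35) and Nob1, the nuclease that matures 18S RNA, in ΔIEC mice (0.44). Whether this list differs from the ribosomal protein genes was not tested.

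A list of 16 RNA polymerase I genes also held its initiation factors and subunits that it shares with other RNA polymerases. Of these 16, 5 rose and 1 fell in flox tumours (median 0.14) and 6 rose and 1 fell in ΔIEC tumours (0.27), from Polr1e (0.75 and 0.90) to Polr1d in flox (-0.33) and Taf1c in ΔIEC mice (-0.51). After rescaling 10 and 9 rose and none fell, beside 36.9% and 25.5% of all genes called higher. Of 16 translation factors and other proteins with TOP mRNAs, 3 rose in flox (median -0.08) and 8 in ΔIEC tumours (0.30). After rescaling 9 and 12 rose, with medians of 0.34 and 0.60 against 0.33 and 0.21 over all genes. Hnrnpa1, an RNA-binding protein, rose most (0.77 and 0.94), and Eif3a, a subunit of initiation factor eIF3 (0.38 in flox), and Btf3, of the nascent chain complex (0.36 in ΔIEC mice), least among those called.

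Of 11 genes of the mTORC1 control of TOP mRNAs, 1 rose and 2 fell in flox tumours and 1 rose and 4 fell in ΔIEC tumours on deposited FPKM. Rps6kb1, the kinase of Rps6, rose (0.43 and 0.49) and Eif4ebp2, a repressor of cap-dependent initiation, fell (-0.70 and -0.64). After rescaling 3 rose and none, Eif4ebp2 included, fell in each genotype, beside 36.9% of all genes called higher in flox and 25.5% in ΔIEC tumours. In the Myc network of 9 genes, 2 rose and 5 fell in flox and 2 rose and 4 fell in ΔIEC tumours, and after rescaling 4 rose and 2 fell in flox and 2 rose and 2 fell in ΔIEC tumours. Myc itself was at 13.8, 13.7 and 10.6 FPKM across FA1 to FA3, 23.7, 34.9 and 28.0 in FT1 to FT3, 12.3, 12.2 and 11.2 in DA1 to DA3 and 31.1, 36.7 and 21.9 in DT1 to DT3, each tumour above each adjacent library (1.12 and 1.23, limma adjusted p = 0.00192 and 0.00215). Mycl rose most in flox (1.18), and the Max partner Mxd1, a Myc antagonist, fell most (-1.53 and -1.58). Of 6 tested genes of ribosome rescue and dissociation 2 rose in flox and 3 in ΔIEC tumours, among them Abce1, which splits subunits apart (0.51 and 0.62). Of 78 mitochondrial ribosomal protein genes, 1 rose and 21 fell in flox (median -0.19) and 4 rose and 4 fell in ΔIEC tumours (median 0.00). After rescaling 11 rose and 3 fell in flox tumours, with a median of 0.20 against 0.33 over all genes. In ΔIEC tumours 26 then rose and none fell, with a median of 0.28 against 0.21. Quantile normalization gave 4 higher and 9 lower in flox (median -0.04) and 15 higher and 2 lower in ΔIEC tumours (0.11). Mrps36 fell most in both genotypes on deposited FPKM (-1.13 and -0.60).

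Copies of these genes limit some values. Pseudogenes named after ribosomal proteins numbered 276 in the table, of which 77 passed the filter, and held FPKM equal to 0.510% to 0.693% of that of the members in a library. How reads that fit a gene and its pseudogene were assigned is unknown. In members such as Rps16, Rps20, Rpl12, Rpl23 and Rpl35, over 50% of the FPKM was in transcripts not annotated as protein-coding, and these transcripts are counted in the values above. Rpl22l1 depended on that choice, with a flox tumour difference of 0.04 over all transcripts and -0.23 over coding ones.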

How the data were processed

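Total RNA was extracted with TRIzol and made into strand-specific TruSeq libraries, per the labels' protocols. The deposited values are log2(FPKM + 1) per transcript made by the authors; FastQC, STAR 2.5, Cuffnorm and GRCm38 are named in the submitters' processing notes, with settings, annotation and library normalization not given in the sources used here. Of 123062 transcripts, 118004 (95.9%) matched GENCODE M21; the others held 4.36% to 7.44% of the FPKM of a library and stayed out. FPKM was recovered as 2^value - 1 and summed per gene. Genes at 1 FPKM or more in at least 3 libraries (16970) were tested on log2(FPKM + 1) with limma 3.58.1 (R 4.3.3; trend and robust, 1 model of 4 groups, 8 residual degrees of freedom), and p-values were adjusted by Benjamini-Hochberg over all genes of a comparison, with a call at 0.05. Fold changes on this scale understate low genes. Paralog ratios were tested by exact permutation. The model was tested on simulated data.

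Members and lists were chosen with earlier results of these data known. Named genes are the 8 largest rises and falls among called members of a comparison (without calls, the smallest p in each direction), the paralogs with their partners, the stalk, Rpsa, Rps6, Rpl5, Rpl11, Rps27a, Rpl41, the 3 highest and 3 lowest members, Fau and Rack1, and in other lists the called genes with the largest and smallest difference. Muc2, Zg16, Npm1, Rpl36a and Rpl24 in the interaction, Rpl30, Rpl35a and Rps23 were named after their values were seen, and Rpl13a was described in full for the same reason. Alternatives were other pseudocounts, filters, scalings, transcripts, variance models and samples, and a replicate block. Some results that the rule would name are not reported here.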

Additional observations from a re-analysis of the deposited data

How the results depend on the processing

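Scaling decided the direction of the ribosomal protein genes in flox tumours and the size of most other values; the cause was not tested. The centring on the member mean was chosen after seeing the data. The median log2 difference became 0.33 in flox and 0.42 in ΔIEC mice under quantile normalization and 0.33 and 0.48 with the protein-coding total rescaled. For ΔIEC against flox these were -0.0494 and -0.0414 in adjacent tissue, 0.0223 under quantile normalization in tumours, and 0.0595 and 0.12 for the interaction. No member was called lower in flox tumours under either (0 against 12), while 36 and 34 were called higher; in ΔIEC tumours 50 and 52 were called higher. Fitting only the groups compared gave 5 lower in flox and 0 higher in ΔIEC tumours, and no filter gave 8 and 8. Centring on the ribosomal protein mean gave 1 higher and 3 lower in flox and 0 higher and 1 lower in ΔIEC tumours.

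In flox tumours 26 of the 81 members were above 0 on deposited FPKM and 80 under quantile normalization and under rescaling. The genes listed in this paragraph are named members only. In flox tumours these turned positive under quantile normalization and rescaling, in that order: Rpl10 0.47 and 0.39, Rpl21 0.035 and 0.0571, Rpl22 0.44 and 0.39, Rpl28 0.0323 and 0.0519, Rpl36 0.0535 and 0.10, Rpl36a 0.25 and 0.19, Rpl36al 0.44 and 0.35, Rpl37 0.16 and 0.0621, Rpl38 0.0331 and 0.0727, Rpl39 0.43 and 0.36, Rpl41 0.33 and 0.13, Rpl7a 0.0347 and 0.042, Rplp1 0.38 and 0.23, Rplp2 0.32 and 0.32, Rps24 0.27 and 0.16, Rps27a 0.48 and 0.40, Rps27l 0.26 and 0.24. Rps27 turned under quantile normalization (0.0284) and Rps29 under rescaling (0.0341). The flox medians of all genes were 0.01 under quantile normalization and 0.33 after rescaling, so several of these positive values, such as the rescaled one of Rpl7a, lay below the median. With median centring Rpl11 (-0.0105), Rpl22l1 (-0.00541), Rpl5 (-0.0329), Rplp0 (-0.0175) and Rps4x (-0.0267) turned negative, as did Rpl22l1 over coding transcripts (-0.23). In ΔIEC tumours Rpl22l1 (0.10 and 0.22) and Rps27 (0.14 and 0.11) turned positive. Of the values of single named genes under alternatives that kept all libraries, 573 kept direction and side of the threshold, 52 gained a call, 31 lost it and 46 turned.

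Leaving out 1 library at a time gave 3 to 12 members lower in flox and 0 to 16 higher in ΔIEC tumours, 8 to 45 and 24 to 58 higher after rescaling, and after centring on the member mean 0 to 3 higher and 1 to 4 lower in flox and 0 to 1 in each direction in ΔIEC tumours. Small differences of named members changed sign: in flox tumours Rpl10 -0.0582 to 0.00165, Rpl11 -5.29e-05 to 0.0699, Rpl22 -0.12 to 0.0501, Rpl22l1 -0.0481 to 0.13, Rpl5 -0.0426 to 0.0934, Rplp0 -0.045 to 0.0919, Rps27a -0.053 to 0.0323, Rps4x -0.00527 to 0.0508, in ΔIEC tumours Rpl22l1 -0.23 to 0.0397 and Rplp1 -0.0498 to 0.065, between genotypes in tumours Rpl34 -0.11 to 0.0303, and the Rpl36al/Rpl36a ratio -0.00867 to 0.13.

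With the title number as a replicate block 9 members were called lower in flox and 10 higher in ΔIEC tumours, and with the description number as a replicate block 12 and 15. Deviations from the group means had r of 0.05, 0.05, -0.19, 0.10 and 0.17 in same-numbered libraries. With means of 3 libraries, these values cannot show whether such libraries come from the same mouse. The labels do not say what the numbers mark, so the main model did not pair the samples. Depth is unknown, and 3 libraries a group limit the precision.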
